A study of Mus musculus with 9 samples.

Results

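The genes described are 35 type I interferon-stimulated antiviral genes, taken by symbol from a table of 32761 genes, and all 35 were found. They were measured by RNA sequencing of mouse liver tumours grown in place from Hepa1-6-luc, a mouse hepatoma line marked with luciferase. The values are FPKM, read-pair counts divided by transcript length and by sequencing depth, so levels of different genes are on a scale per transcript length. Tumours came from 3 groups of 3 libraries each, harvested on day 14. Co+Len@OVA+anti-PD1 mice received nanoclusters at 2 mg/mL through the tail vein every 3 days and an antibody against PD1 at 50 µg per injection every 4 days. Lenvatinib+anti-PD1 mice received the free drug on the nanocluster schedule, at a dose described as equivalent, and the same antibody. The group labelled Control comes with no further description of what these mice were given. Lenvatinib blocks the kinases of the VEGF and FGF receptors, and antibodies against PD1 release a brake on T cells. Neither the drug, the antibody nor anything else named in the label Co+Len@OVA was given alone in the sequenced groups. Their parts in a difference therefore cannot be told apart. Any pooling of animals is not given in the sources used here, nor are strain, age and sex. The samples are whole tumours of 1 grafted line, in which more cells of a type and more RNA of a gene per cell cannot be told apart.

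Type I interferons bind the receptor pair IFNAR1 and IFNAR2, whose kinases JAK1 and TYK2 phosphorylate STAT2 and other substrates. STAT2 and IRF9 are parts of ISGF3, a complex that binds the interferon-stimulated response element (ISRE) and switches on genes against viruses. Interferon gamma uses its own receptor and acts mainly through gamma-activated sites (GAS), and many genes answer to both. The members below comprise nucleic acid sensors, the transcription factors of the pathway, the ubiquitin-like ISG15 and its enzymes, the IFIT and OAS families, restriction factors, a group of ADP-ribosyltransferases and other genes known mainly as interferon-induced.

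Promoter sequence is shown for members whose start region holds the ISRE core, since this element is what the family is known to share and the members were not chosen by it. RefSeq promoters of 300 bases (250 before and 50 from the start site on, build GRCm38.p6) were matched for 25 of the 35 members, 30 promoters in all. The core was searched as GAAA, any 2 bases, then GAAA again, on both strands, overlapping matches included. In each line the sequence runs 5′ to 3′ on the strand of the gene, capitals mark ISRE cores, and 20 bases are shown on either side. A core that reads with TTTC blocks lies on the opposite strand.
Isg15 (chr4:156200855-156200916, minus strand): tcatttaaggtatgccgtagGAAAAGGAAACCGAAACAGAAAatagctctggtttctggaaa
Bst2 (chr8:71537567-71537622, minus strand): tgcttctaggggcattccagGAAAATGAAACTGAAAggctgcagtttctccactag
Ifit1 (chr19:34640765-34640833, plus strand): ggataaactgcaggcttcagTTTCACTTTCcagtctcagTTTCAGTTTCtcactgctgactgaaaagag
Ifit3 (chr19:34583353-34583436, plus strand): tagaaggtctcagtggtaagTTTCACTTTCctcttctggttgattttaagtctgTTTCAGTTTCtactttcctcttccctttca
Ifit3b (chr19:34607749-34607832, plus strand): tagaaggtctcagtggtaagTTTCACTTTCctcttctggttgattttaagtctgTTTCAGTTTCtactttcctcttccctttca
Oas1a (chr5:120907510-120907565, minus strand): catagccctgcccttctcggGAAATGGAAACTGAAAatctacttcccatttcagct
Oas1g (chr5:120887596-120887651, minus strand): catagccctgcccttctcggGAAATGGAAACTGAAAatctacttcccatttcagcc
Oas3 (chr5:120777705-120777754, minus strand): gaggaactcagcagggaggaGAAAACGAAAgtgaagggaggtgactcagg
Rsad2 (chr12:26456543-26456592, minus strand): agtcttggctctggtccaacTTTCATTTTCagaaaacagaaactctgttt
Overlapping cores run together in Isg15, Bst2, Oas1a and Oas1g, where 3, 2, 2 and 2 matches share bases. The Ifit3 and Ifit3b windows are identical at 84 of 84 bases, and those of Oas1a and Oas1g at 55 of 56. An ISRE core stood in the promoter of 13 of 25 members, against 3.99% of 27025 genes with a promoter in the table. The other members with a core were Ifih1, Eif2ak2, Stat2 and Trim30a. The GAS letters TTCNNNGAA, which read the same on both strands, were found in 6 of the 25 members (Eif2ak2, Ifit2, Oas1a, Bst2, Isg20 and Ifi35), against 9.55% of all genes in the table. These are matches of letters, and no binding was measured.

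**Figure D1:**
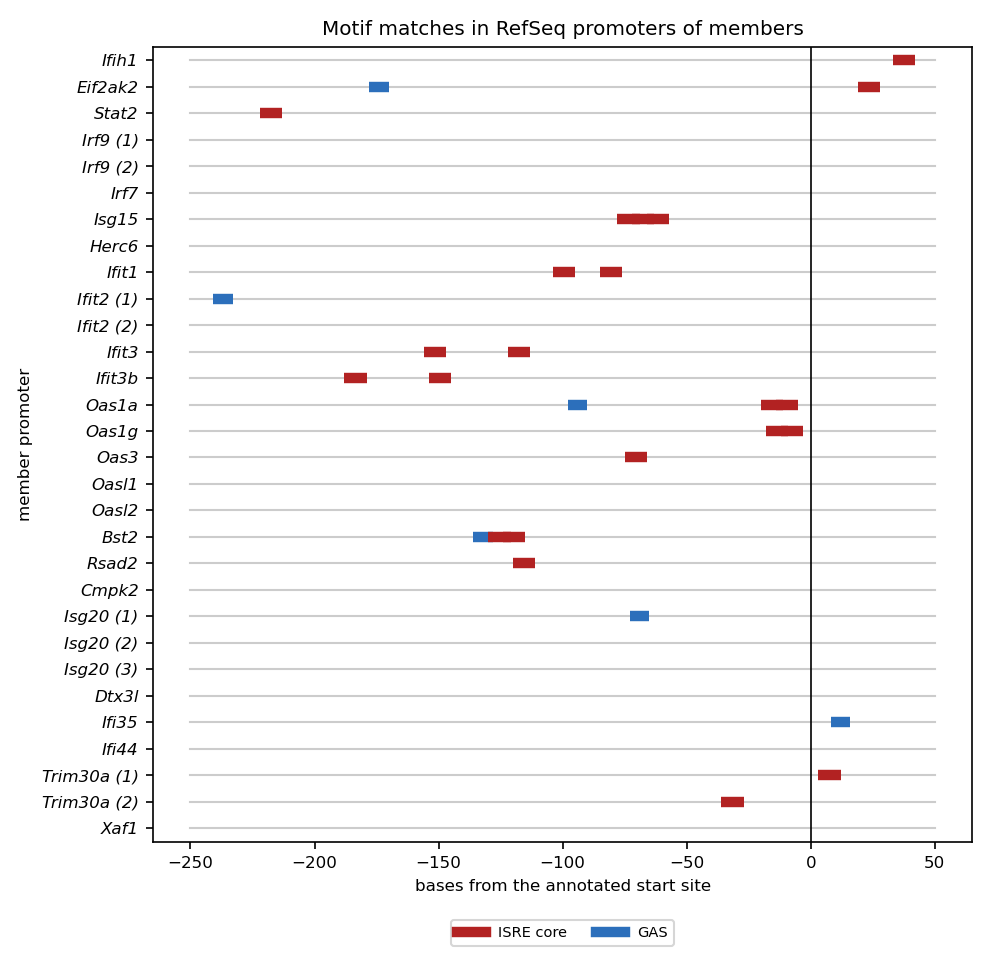
Matches of the ISRE core (red) and of GAS (blue) along 30 RefSeq promoters of 25 members, in bases from the annotated start site at 0. A number after a gene name separates promoters of the same gene. ISRE cores lie between bases -222 and 42 from the start, and Isg15 holds 3 overlapping cores.

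Some libraries touch the results that follow. Within Control, replicate 1 was the lowest of its group for 32 of the 35 members, and replicate 2 the highest for 27. Control replicate 1 also had a summed T cell marker level of 12.6 FPKM, against 55.5 and 42.5 in Control replicates 2 and 3, and a summed mature hepatocyte level of 5270.4 FPKM against 2304 and 3347. Replicate 3 lay between replicates 1 and 2 of its own group for 28 of 35 members in Co+Len@OVA+anti-PD1, 14 in Lenvatinib+anti-PD1 and 29 in Control. Over all 15353 genes tested the same was true of 65.5%, 45.4% and 66.7% of genes. Whether the libraries numbered 3 are independent tumours was not tested, and p-values over 9 libraries are too small if they are not. Results from replicates 1 and 2 of each group therefore stand beside the counts of calls, but beside few calls of single genes. Lenvatinib+anti-PD1 replicates 2 and 3 carried skeletal muscle genes, with marker sums of 3621 and 1443 FPKM against 37.9 FPKM or less in the other 7 libraries.

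All members passed the filter of a mean of at least 0.5 FPKM over the 9 libraries, and each also averaged at least 0.5 FPKM in Control alone. They were tested with limma on log2(FPKM + 0.5), a scale that understates the change of low genes, in a fit of all 9 libraries and all 15353 genes with Benjamini-Hochberg adjustment. "Rose" and "fell" refer to an adjusted p under 0.05 in that fit. Values per library are given in the order of replicates 1, 2 and 3. Summed over the 35 members, the level was 702, 601 and 647 FPKM in Co+Len@OVA+anti-PD1, 482, 468 and 495 FPKM in Lenvatinib+anti-PD1 and 247, 339.7 and 321 FPKM in Control tumours. The 3 groups did not overlap in this sum, to which Bst2 alone gave 231, 237 and 232 FPKM in Co+Len@OVA+anti-PD1, 214, 199 and 215 FPKM in Lenvatinib+anti-PD1 and 95.7, 108 and 109.6 FPKM in Control tumours. The median level over the 35 members, on the log2(FPKM + 0.5) scale, was 3.49, 2.92 and 3.22 in Co+Len@OVA+anti-PD1, 2.42, 2.29 and 2.30 in Lenvatinib+anti-PD1 and 1.48, 2.52 and 2.23 in Control tumours. By this median Co+Len@OVA+anti-PD1 lay above both other groups, and Lenvatinib+anti-PD1 lay inside the Control range. The order of the group means was Co+Len@OVA+anti-PD1, Lenvatinib+anti-PD1, Control for 28 members, and for 21 without Control replicate 1. With all libraries, the Control mean of Dhx58, Ifit2, Oas3, Oasl1, Mx2 and Rsad2 lay above that of Lenvatinib+anti-PD1, and the Control mean of Mx1 was the highest of the 3. Without Control replicate 1 the Control mean lay above that of Lenvatinib+anti-PD1 for 14 members, Eif2ak2, Irf7, Ifit1, Cmpk2, Parp9, Dtx3l, Rtp4 and Trim30a being added and Oasl1 lost, and was the highest of the 3 for Dhx58, Rsad2 and Mx1.

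**Figure D2:**
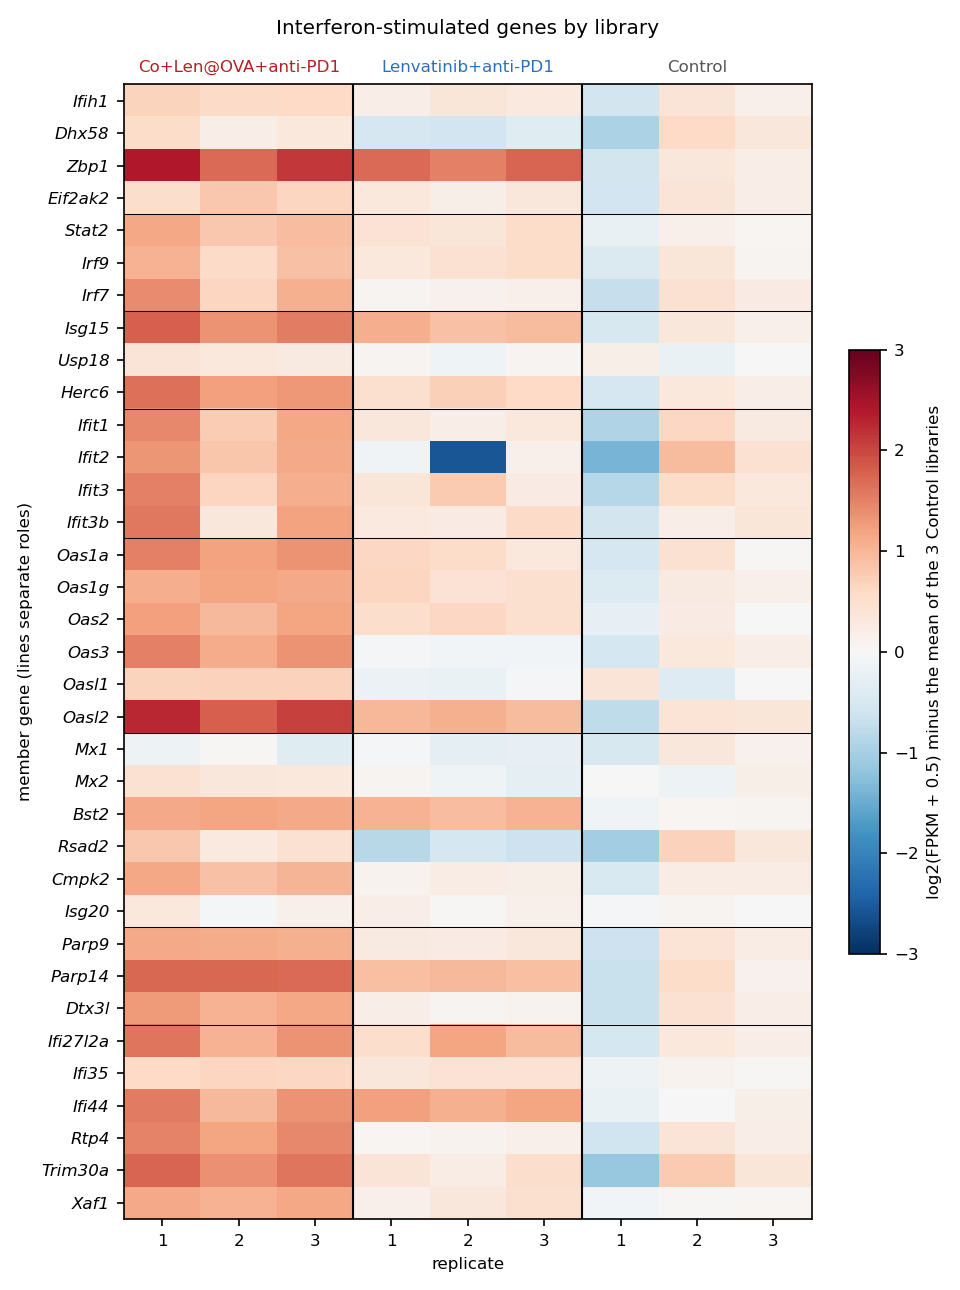
Level of each of the 35 members in each of the 9 libraries, as log2(FPKM + 0.5) minus the mean of the 3 Control libraries (color), with genes in rows by role and replicates 1, 2 and 3 of each group in columns. The Co+Len@OVA+anti-PD1 columns are red for most members, Control replicate 1 is the lowest Control column for 32 members, and Ifit2 in Lenvatinib+anti-PD1 replicate 2 is the single darkest blue cell.

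The first comparison asks how tumours of the nanocluster arm differed from Control. The antiviral genes were broadly higher: 26 of 35 rose and none fell, led by Zbp1, Oasl2, Parp14, Trim30a and Isg15. Over all genes tested, 20.9% rose and 12.7% fell. The median log2 fold change of the members was 1.11, against 0.13 over all genes tested. All 3 Co+Len@OVA+anti-PD1 libraries lay above all 3 Control libraries for 29 members, and for 32.4% of all genes. All members of the OAS family, of the transcription factors, of the ISG15 group and of the PARP9-DTX3L-PARP14 group rose, but 1 of 4 sensors, 2 of 4 IFIT genes and 2 of 6 restriction factors and antiviral enzymes. With replicates 1 and 2 only, which leaves 3 residual degrees of freedom in place of 6, Bst2 alone passed (adjusted p = 0.0428), as did 0.111% of all genes in this direction. At an unadjusted p under 0.05 in those libraries, 23 of 35 members and 13.6% of all genes were higher, and the members' median was 1.20. Without Control replicate 1 the members' median was 0.83. In that fit 27 members rose and none fell, beside 2919 of 15353 genes that rose and 1945 that fell. Of the 26 calls, 19 were kept in each of 9 fits that left out 1 library. Irf9 and Trim30a lost the call without Co+Len@OVA+anti-PD1 replicate 1 or 3 (adjusted p up to 0.0576 and 0.0750), and Oasl1 without Co+Len@OVA+anti-PD1 replicate 3 or Control replicate 3 (up to 0.0587). Irf7, Usp18, Ifit1 and Ifit3b kept theirs in 5, 2, 2 and 1 of the 9 fits.

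The second comparison asks how free lenvatinib with the antibody differed from Control. Here 11 of 35 members rose and none fell, against 13.8% of all genes higher and 9.87% lower. They were Zbp1, Stat2, Isg15, Oas2, Oasl2, Bst2, Parp14, Ifi27l2a, Ifi35, Ifi44 and Xaf1. The median over the members was 0.32, against 0.05 over all genes tested. The Lenvatinib+anti-PD1 libraries were all above the Control libraries for 13 members and for 26.1% of all genes. No member passed with replicates 1 and 2 only, while 0.215% of all genes passed as higher and 53 genes passed in either direction. In those libraries, 7 members and 9.91% of all genes were higher at an unadjusted p under 0.05. Without Control replicate 1, 10 members rose, against 15.5% of all genes, and Dhx58, Rsad2 and Mx1 fell, against 17.4% of all genes; the median was then 0.09. The number of members passing was 5 without Co+Len@OVA+anti-PD1 replicate 3, Lenvatinib+anti-PD1 replicate 2, Lenvatinib+anti-PD1 replicate 3 or Control replicate 3, and 7 without Lenvatinib+anti-PD1 replicate 1. Zbp1, Isg15, Bst2, Ifi35 and Ifi44 passed in each of the 9 fits that left out 1 library. Stat2, Oas2, Parp14 and Ifi27l2a did so in 4 each, Oasl2 in 2 and Xaf1 in 1 (adjusted p of Xaf1 up to 0.154).

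The third comparison asks how the nanocluster arm differed from free lenvatinib, both with the antibody. Of 35 members 14 rose in Co+Len@OVA+anti-PD1 and none fell, against 17.3% of all genes higher and 12.0% lower. All 6 OAS genes rose, with Stat2, Herc6, Mx2, Cmpk2, Parp9, Dtx3l, Rtp4 and Xaf1. The median was 0.66, against 0.07 over all genes tested. The Co+Len@OVA+anti-PD1 libraries were all above the Lenvatinib+anti-PD1 libraries for 28 members and for 34.3% of all genes. No member passed with replicates 1 and 2 only, while 0.443% of all genes passed as higher and 365 genes passed in either direction. In those libraries, 9 members and 10.4% of all genes were higher at an unadjusted p under 0.05. The count depended on the libraries that set the spread: it was 27 without Control replicate 1 (27.5% of all genes higher and 15.4% lower, with no member lower), 5 without Co+Len@OVA+anti-PD1 replicate 1 or 3, 6 without Lenvatinib+anti-PD1 replicate 2 or 3 and 9 without Lenvatinib+anti-PD1 replicate 1. Oas3, Oasl1, Cmpk2, Rtp4 and Xaf1 passed in each of the 9 fits that left out 1 library, and the other 9 calls were kept in 3 to 5 of them. The 3 comparisons share libraries in pairs, so their values for a gene are not independent of each other.

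**Figure D3:**
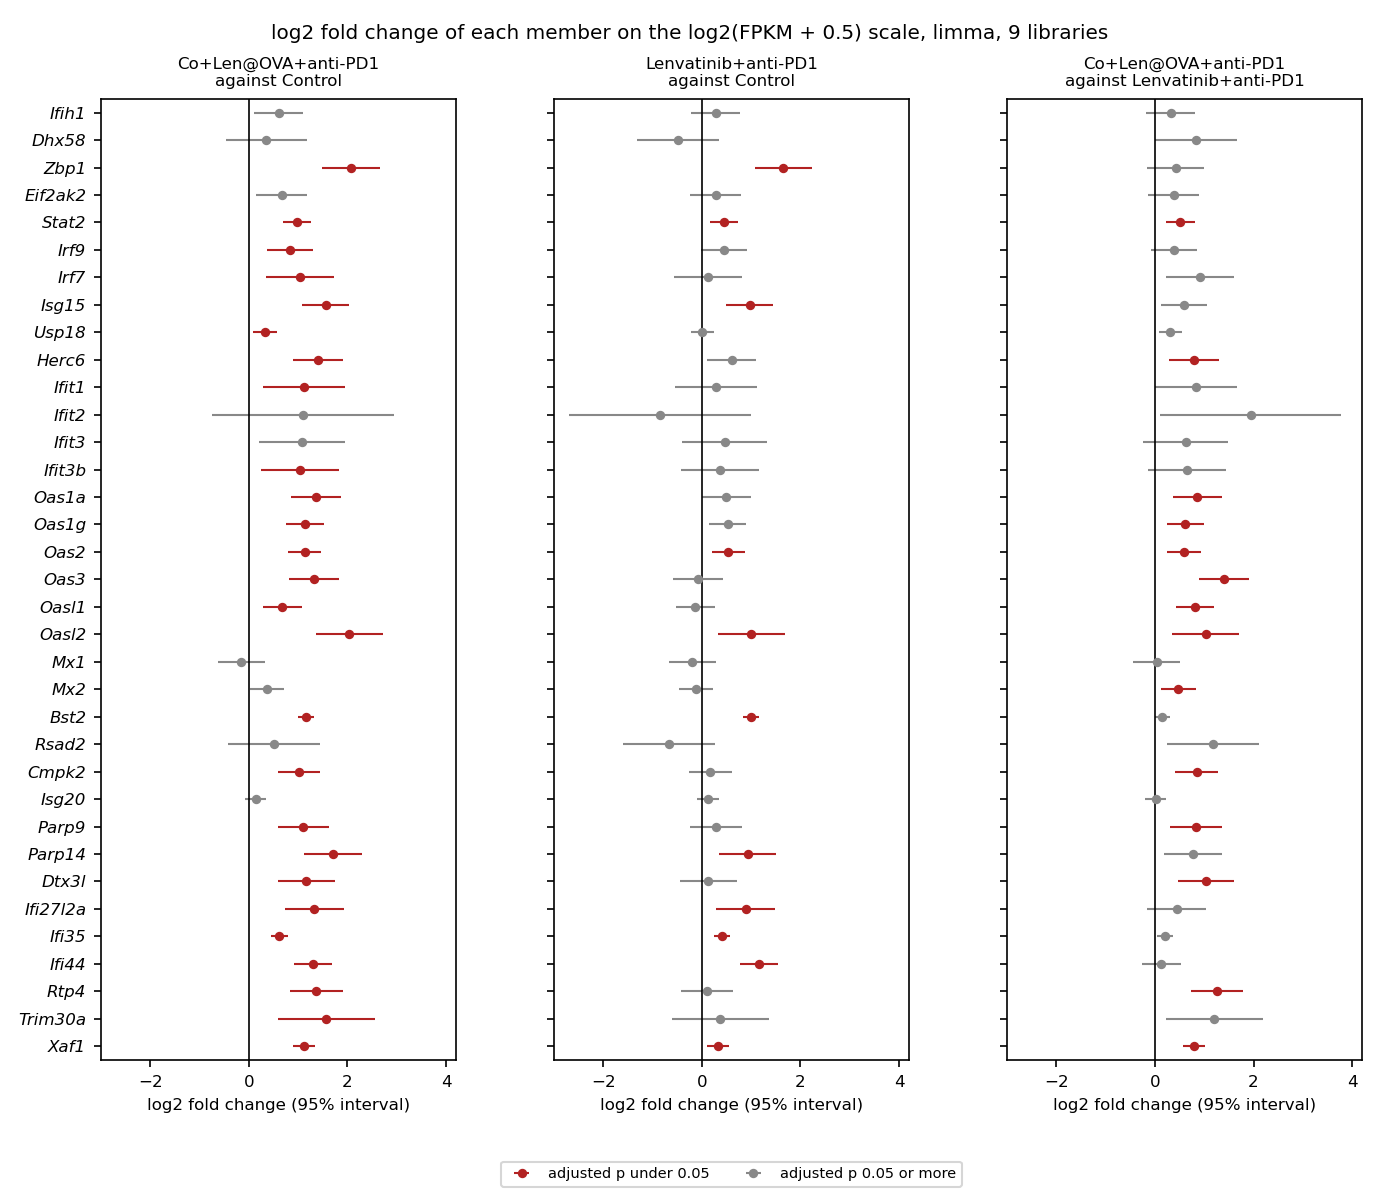
log2 fold change of each member with its 95% interval on the log2(FPKM + 0.5) scale, in limma's fit of 9 libraries, in Co+Len@OVA+anti-PD1 against Control (left), Lenvatinib+anti-PD1 against Control (middle) and Co+Len@OVA+anti-PD1 against Lenvatinib+anti-PD1 (right). Red marks an adjusted p under 0.05, which holds for 26, 11 and 14 of the 35 members from left to right; the interval of Ifit2 is the widest in each panel.

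Among the nucleic acid sensors, Zbp1 stood out and the others stayed closer to Control. Zbp1 binds nucleic acid in the left-handed Z form and can start inflammatory cell death. Zbp1 had 66.5, 40.5 and 54.3 FPKM in Co+Len@OVA+anti-PD1, 40.7, 35.5 and 41.7 FPKM in Lenvatinib+anti-PD1 and 8.12, 15.5 and 14.0 FPKM in Control tumours. It rose in both treated groups against Control, by 2.08 ± 0.25 (SE, adjusted p = 0.00104) on the log2 scale in Co+Len@OVA+anti-PD1 and by 1.65 ± 0.25 (SE, adjusted p = 0.00336) in Lenvatinib+anti-PD1. Between the treatments the libraries overlapped, with a difference of 0.42 ± 0.25 (SE, adjusted p = 0.228). Ifih1 encodes MDA5, which detects long double-stranded RNA. Ifih1 had 3.33, 3.08 and 3.16 FPKM in Co+Len@OVA+anti-PD1, 2.26, 2.62 and 2.48 FPKM in Lenvatinib+anti-PD1 and 1.15, 2.68 and 2.19 FPKM in Control tumours. All 3 Co+Len@OVA+anti-PD1 values lay above the rest, but the difference from Control, 0.61 ± 0.22 (SE, adjusted p = 0.0604), missed the threshold. Dhx58 encodes LGP2, a helicase that modulates MDA5 and RIG-I. Dhx58 had 4.41, 3.36 and 3.69 FPKM in Co+Len@OVA+anti-PD1, 1.88, 1.74 and 2.12 FPKM in Lenvatinib+anti-PD1 and 1.23, 4.62 and 3.79 FPKM in Control tumours. Control spanned the range of both treatments, which did not overlap each other, and no comparison of Dhx58 passed in the fit of 9 libraries. Without Control replicate 1 the difference of Lenvatinib+anti-PD1 from Control was -0.96 on the log2 scale (limma adjusted p = 0.00216). Eif2ak2 encodes PKR, the kinase that stops translation on sensing double-stranded RNA. Eif2ak2 had 5.69, 7.06 and 6.27 FPKM in Co+Len@OVA+anti-PD1, 4.87, 4.38 and 4.94 FPKM in Lenvatinib+anti-PD1 and 2.38, 5.09 and 4.42 FPKM in Control tumours. Its difference of Co+Len@OVA+anti-PD1 from Control, 0.67 ± 0.22 (SE, adjusted p = 0.0517), lay just outside the threshold although those groups did not overlap. In the fit without Control replicate 1, all sensors but Dhx58 passed as higher in this comparison, as did 2919 of 15353 genes. Between the treatments 3 of the 4 sensors then passed as higher, beside 27.5% of all genes.

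The pathway's own transcription factors all rose in Co+Len@OVA+anti-PD1 against Control. STAT2 and IRF9 are the parts of ISGF3 that are particular to type I and type III interferon, and both are themselves interferon-induced. Stat2 had 20.5, 16.0 and 17.4 FPKM in Co+Len@OVA+anti-PD1, 12.2, 11.6 and 13.2 FPKM in Lenvatinib+anti-PD1 and 7.48, 9.97 and 9.33 FPKM in Control tumours. Stat2 was ordered without overlap across all 3 groups and passed in each comparison, at 0.97 ± 0.12 (SE, adjusted p = 0.00127), 0.45 ± 0.12 (SE, adjusted p = 0.0332) for Lenvatinib+anti-PD1 against Control, and 0.52 ± 0.12 (SE, adjusted p = 0.0174) between the treatments. Irf9 had 9.81, 7.00 and 8.81 FPKM in Co+Len@OVA+anti-PD1, 5.75, 6.41 and 6.84 FPKM in Lenvatinib+anti-PD1 and 3.21, 5.93 and 4.81 FPKM in Control tumours. Irf9 rose in Co+Len@OVA+anti-PD1 against Control by 0.84 ± 0.20 (SE, adjusted p = 0.0163), and Lenvatinib+anti-PD1 overlapped Control. IRF7 drives the later wave of interferon alpha genes. Irf7 had 23.1, 13.3 and 18.1 FPKM in Co+Len@OVA+anti-PD1, 8.84, 9.23 and 9.35 FPKM in Lenvatinib+anti-PD1 and 5.00, 11.6 and 9.93 FPKM in Control tumours. It rose in Co+Len@OVA+anti-PD1 against Control (1.04 ± 0.30 SE, adjusted p = 0.0306) and lay within the Control range in Lenvatinib+anti-PD1. Between the treatments the libraries of Irf7 did not overlap, at 0.92 ± 0.30 (SE, adjusted p = 0.0504).

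The ISG15 system was raised, with its deconjugating enzyme the least. ISG15 is a ubiquitin-like protein that is attached to other proteins, and in mice HERC6 is the main ligase that attaches it. Isg15 had 30.0, 22.2 and 25.1 FPKM in Co+Len@OVA+anti-PD1, 18.3, 15.7 and 16.6 FPKM in Lenvatinib+anti-PD1 and 5.82, 10.7 and 9.32 FPKM in Control tumours. Isg15 rose by 1.56 ± 0.21 (SE, adjusted p = 0.00146) in Co+Len@OVA+anti-PD1 and by 0.97 ± 0.21 (SE, adjusted p = 0.0126) in Lenvatinib+anti-PD1 against Control, and no group overlapped another. Herc6 had 4.28, 3.10 and 3.27 FPKM in Co+Len@OVA+anti-PD1, 1.62, 2.02 and 1.82 FPKM in Lenvatinib+anti-PD1 and 0.576, 1.39 and 1.25 FPKM in Control tumours. Herc6 rose in Co+Len@OVA+anti-PD1 against Control (1.40 ± 0.22 SE, adjusted p = 0.00293) and against Lenvatinib+anti-PD1 (0.79 ± 0.22 SE, adjusted p = 0.0297). USP18 removes ISG15 from proteins and also binds IFNAR2, which dampens signalling. Usp18 had 13.3, 12.5 and 12.1 FPKM in Co+Len@OVA+anti-PD1, 10.6, 9.04 and 10.7 FPKM in Lenvatinib+anti-PD1 and 11.3, 8.72 and 10.1 FPKM in Control tumours. Usp18 had the smallest rise of the 26 that passed, 0.32 ± 0.10 (SE, adjusted p = 0.0446), and Lenvatinib+anti-PD1 differed from Control by 0.01 ± 0.10 with a 95% interval of -0.23 to 0.25.

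Of the IFIT proteins, IFIT1 is known to bind viral RNA that lacks the host's cap marks. The 4 genes lie in a cluster on chromosome 19, and 2 of them rose in Co+Len@OVA+anti-PD1 against Control, none in the other comparisons. Ifit1 had 4.71, 2.78 and 3.80 FPKM in Co+Len@OVA+anti-PD1, 1.95, 1.72 and 1.92 FPKM in Lenvatinib+anti-PD1 and 0.539, 2.49 and 1.81 FPKM in Control tumours. Ifit1 rose in Co+Len@OVA+anti-PD1 against Control by 1.12 ± 0.36 (SE, adjusted p = 0.0451), and Control replicate 1 was the lowest of all libraries. Ifit3 had 11.5, 6.01 and 8.44 FPKM in Co+Len@OVA+anti-PD1, 4.88, 6.68 and 4.44 FPKM in Lenvatinib+anti-PD1 and 1.80, 5.59 and 4.71 FPKM in Control tumours. Ifit3b had 3.96, 1.39 and 2.95 FPKM in Co+Len@OVA+anti-PD1, 1.34, 1.29 and 1.75 FPKM in Lenvatinib+anti-PD1 and 0.519, 1.23 and 1.42 FPKM in Control tumours. For both, the group means were ordered Co+Len@OVA+anti-PD1, Lenvatinib+anti-PD1, Control. Ifit3b passed against Control (1.04 ± 0.34 SE, adjusted p = 0.0494) with overlapping libraries, and Ifit3 missed the threshold (1.08 ± 0.38 SE, adjusted p = 0.0572). Ifit3 and Ifit3b are near copies: 31.7% of the 100-base stretches of Ifit3 transcripts occur unchanged in Ifit3b, so reads may be split between them and their separate values are uncertain. Ifit2 had 8.00, 5.56 and 6.94 FPKM in Co+Len@OVA+anti-PD1, 2.64, 0.0743 and 3.27 FPKM in Lenvatinib+anti-PD1 and 0.780, 6.01 and 4.18 FPKM in Control tumours. The value of 0.0743 FPKM in Lenvatinib+anti-PD1 replicate 2 stands far below the other Ifit2 values, and the spread left no call in any comparison (95% interval -0.74 to 2.94 in Co+Len@OVA+anti-PD1 against Control).

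The OAS family was the only role group of the 8 in which every member rose in Co+Len@OVA+anti-PD1 against both Control and Lenvatinib+anti-PD1. OAS enzymes sense double-stranded RNA and make 2′-5′ oligoadenylates, which activate RNase L, while OASL proteins are relatives known to act in other ways. Oas1a had 18.7, 15.0 and 16.4 FPKM in Co+Len@OVA+anti-PD1, 9.70, 9.32 and 7.84 FPKM in Lenvatinib+anti-PD1 and 4.23, 8.65 and 6.35 FPKM in Control tumours. Oas1g had 4.31, 4.64 and 4.49 FPKM in Co+Len@OVA+anti-PD1, 3.02, 2.55 and 2.67 FPKM in Lenvatinib+anti-PD1 and 1.21, 2.20 and 1.99 FPKM in Control tumours. Oas1a rose by 1.36 ± 0.22 (SE, adjusted p = 0.00332) against Control and 0.86 ± 0.22 (SE, adjusted p = 0.0216) against Lenvatinib+anti-PD1, and Oas1g by 1.14 ± 0.17 (SE, adjusted p = 0.00212) and 0.62 ± 0.17 (SE, adjusted p = 0.0262). These are neighbours on chromosome 5 and near copies, with 40.9% of the 100-base stretches of Oas1a transcripts found unchanged in Oas1g, so their separate values are uncertain. Oas2 had 2.07, 1.65 and 1.97 FPKM in Co+Len@OVA+anti-PD1, 1.07, 1.17 and 1.02 FPKM in Lenvatinib+anti-PD1 and 0.424, 0.790 and 0.591 FPKM in Control tumours. Oas3 had 3.13, 2.27 and 2.72 FPKM in Co+Len@OVA+anti-PD1, 0.722, 0.692 and 0.707 FPKM in Lenvatinib+anti-PD1 and 0.382, 1.08 and 0.967 FPKM in Control tumours. Oas2 was ordered without overlap across the 3 groups, while Oas3 in Lenvatinib+anti-PD1 lay inside the Control range. Oas3 had the largest difference between the treatments among the 14 that passed, 1.40 ± 0.22 (SE, adjusted p = 0.00286), close to its difference from Control of 1.33 ± 0.22 (SE, adjusted p = 0.00371).

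Oasl1 had 29.5, 29.9 and 30.1 FPKM in Co+Len@OVA+anti-PD1, 16.4, 16.0 and 18.1 FPKM in Lenvatinib+anti-PD1 and 24.3, 13.9 and 18.5 FPKM in Control tumours. Oasl1, whose product is known in mice to hold back translation of IRF7, was nearly level within Co+Len@OVA+anti-PD1 and rose against Control by 0.68 ± 0.17 (SE, adjusted p = 0.0180) and against Lenvatinib+anti-PD1 by 0.81 ± 0.17 (SE, adjusted p = 0.00998). Its Control replicates ran opposite to most members, with replicate 1 the highest. Oasl2 had 14.8, 10.5 and 12.7 FPKM in Co+Len@OVA+anti-PD1, 5.87, 6.13 and 5.64 FPKM in Lenvatinib+anti-PD1 and 1.37, 3.76 and 3.58 FPKM in Control tumours. Oasl2, with its lowest value in Control replicate 1, rose in both treatments against Control, by 2.03 ± 0.29 (SE, adjusted p = 0.00217) and 1.00 ± 0.29 (SE, adjusted p = 0.0428), and between them by 1.03 ± 0.29 (SE, adjusted p = 0.0335). The call in Lenvatinib+anti-PD1 was kept in 2 of the 9 fits that left out 1 library.

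Of the 6 restriction factors and antiviral enzymes, Bst2 and Cmpk2 rose in Co+Len@OVA+anti-PD1 against Control. BST2, or tetherin, holds budding virus at the cell surface, and Bst2 was the most abundant member. Bst2 had 231, 237 and 232 FPKM in Co+Len@OVA+anti-PD1, 214, 199 and 215 FPKM in Lenvatinib+anti-PD1 and 95.7, 108 and 109.6 FPKM in Control tumours. Group means were 233 ± 3.13 FPKM in Co+Len@OVA+anti-PD1, 209.5 ± 9.0 FPKM in Lenvatinib+anti-PD1 and 104 ± 7.67 FPKM in Control tumours (SD, n = 3 each). Bst2 rose by 1.16 ± 0.07 (SE, adjusted p = 6.04e-05) in Co+Len@OVA+anti-PD1 and by 1.00 ± 0.07 (SE, adjusted p = 0.000107) in Lenvatinib+anti-PD1 against Control. The treatments themselves differed by 0.15 ± 0.07 (SE, adjusted p = 0.123), with a 95% interval of -0.01 to 0.31. RSAD2, or viperin, makes a chain-ending nucleotide from a product of CMPK2, and the 2 genes are neighbours on chromosome 12. Cmpk2 had 3.00, 2.41 and 2.70 FPKM in Co+Len@OVA+anti-PD1, 1.19, 1.35 and 1.29 FPKM in Lenvatinib+anti-PD1 and 0.656, 1.33 and 1.35 FPKM in Control tumours. Rsad2 had 3.36, 2.22 and 2.51 FPKM in Co+Len@OVA+anti-PD1, 0.738, 1.03 and 0.941 FPKM in Lenvatinib+anti-PD1 and 0.564, 3.09 and 2.31 FPKM in Control tumours. Cmpk2 rose in Co+Len@OVA+anti-PD1 against Control (1.02 ± 0.19 SE, adjusted p = 0.00548) and against Lenvatinib+anti-PD1 (0.85 ± 0.19 SE, adjusted p = 0.0126). Rsad2 did not pass in any comparison of 9 libraries: its Control values spanned all of Lenvatinib+anti-PD1 and overlapped Co+Len@OVA+anti-PD1, and the treatments, which did not overlap, differed by 1.18 ± 0.41 (SE, adjusted p = 0.0606). Without Control replicate 1, the difference of Lenvatinib+anti-PD1 from Control was -1.18 (limma adjusted p = 0.00346).

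MX proteins are dynamin-like GTPases that block incoming virus, and in many laboratory mouse strains the Mx genes are defective. Mx1 had 3.08, 3.58 and 2.59 FPKM in Co+Len@OVA+anti-PD1, 3.27, 2.77 and 2.86 FPKM in Lenvatinib+anti-PD1 and 2.34, 4.53 and 3.84 FPKM in Control tumours. Mx1 had no call in any comparison of 9 libraries: its differences were -0.15 ± 0.21, -0.19 ± 0.21 and 0.04 ± 0.21 (SE), in order, in Co+Len@OVA+anti-PD1 against Control, Lenvatinib+anti-PD1 against Control and Co+Len@OVA+anti-PD1 against Lenvatinib+anti-PD1. The sign of the comparisons that include Co+Len@OVA+anti-PD1 turned under other settings. In Lenvatinib+anti-PD1 against Control it stayed negative when each library was left out (-0.43 to -0.020), and Mx1 was among the 3 members that fell there without Control replicate 1. Mx2 had 1.09, 0.970 and 0.940 FPKM in Co+Len@OVA+anti-PD1, 0.729, 0.569 and 0.447 FPKM in Lenvatinib+anti-PD1 and 0.656, 0.543 and 0.806 FPKM in Control tumours. Mx2, annotated as a polymorphic pseudogene in the GENCODE mouse annotation, was the lowest member and rose in Co+Len@OVA+anti-PD1 against Lenvatinib+anti-PD1 (0.48 ± 0.15 SE, adjusted p = 0.0466), a call kept in 3 of the 9 fits that left out 1 library. ISG20 degrades single-stranded RNA. Isg20 had 34.2, 26.7 and 30.7 FPKM in Co+Len@OVA+anti-PD1, 31.6, 28.2 and 30.6 FPKM in Lenvatinib+anti-PD1 and 26.4, 29.0 and 27.4 FPKM in Control tumours. Its groups overlapped throughout, with 95% intervals of -0.08 to 0.35 in Co+Len@OVA+anti-PD1 against Control and -0.20 to 0.23 between the treatments, where the sign turned under other scalings.

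**Figure D4:**
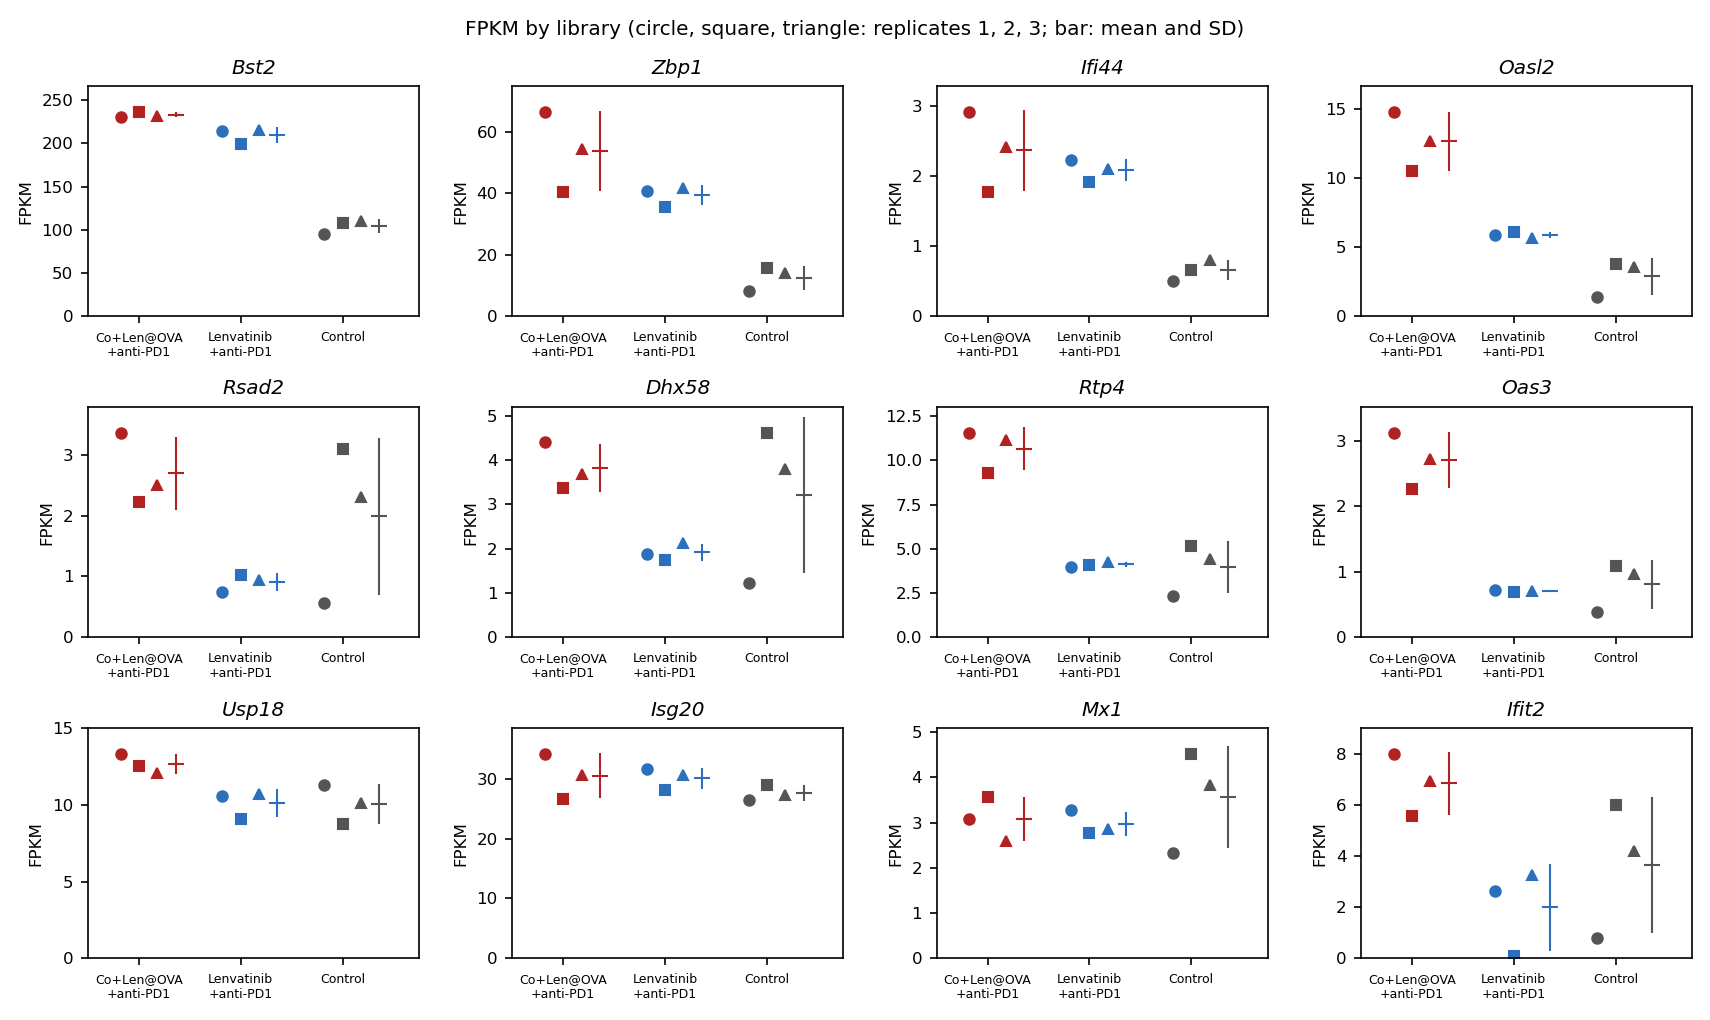
FPKM of 12 members in each library, with circle, square and triangle for replicates 1, 2 and 3 and a bar for the mean and SD of each group; each axis starts at 0. Bst2, Zbp1 and Ifi44 are higher than Control in both treated groups, Rtp4 and Oas3 in Co+Len@OVA+anti-PD1 only by the test, and Isg20 and Mx1 overlap between groups.

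The ADP-ribosyltransferase genes Parp9 and Parp14 and the ubiquitin ligase gene Dtx3l, whose product works in a complex with PARP9, lie side by side on chromosome 16. All 3 rose in Co+Len@OVA+anti-PD1 against Control. Parp9 had 15.8, 15.7 and 15.1 FPKM in Co+Len@OVA+anti-PD1, 8.39, 8.34 and 8.90 FPKM in Lenvatinib+anti-PD1 and 4.34, 9.36 and 8.12 FPKM in Control tumours. Dtx3l had 12.7, 10.9 and 11.8 FPKM in Co+Len@OVA+anti-PD1, 5.77, 5.31 and 5.40 FPKM in Lenvatinib+anti-PD1 and 2.96, 7.04 and 5.80 FPKM in Control tumours. Parp9 and Dtx3l rose by 1.11 ± 0.23 (SE, adjusted p = 0.00880) and 1.16 ± 0.25 (SE, adjusted p = 0.0103) against Control and by 0.83 ± 0.23 (SE, adjusted p = 0.0296) and 1.04 ± 0.25 (SE, adjusted p = 0.0178) against Lenvatinib+anti-PD1. They overlap on opposite strands, and it is not given whether strand was used in the counting, so reads of the overlap cannot be assigned. Parp14 had 12.4, 12.5 and 12.3 FPKM in Co+Len@OVA+anti-PD1, 6.93, 7.29 and 6.86 FPKM in Lenvatinib+anti-PD1 and 2.00, 5.25 and 3.80 FPKM in Control tumours. Parp14 rose strongly in Co+Len@OVA+anti-PD1 against Control (1.71 ± 0.25 SE, adjusted p = 0.00243) and also rose in Lenvatinib+anti-PD1 (0.93 ± 0.25 SE, adjusted p = 0.0328). Its 3 Co+Len@OVA+anti-PD1 values were nearly equal.

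All 6 remaining members rose in Co+Len@OVA+anti-PD1 against Control, and 4 did so in Lenvatinib+anti-PD1. Ifi44 had 2.92, 1.77 and 2.42 FPKM in Co+Len@OVA+anti-PD1, 2.23, 1.92 and 2.11 FPKM in Lenvatinib+anti-PD1 and 0.510, 0.666 and 0.804 FPKM in Control tumours. Ifi44, an interferon-induced gene of unsettled function, rose in both treatments, by 1.29 ± 0.17 (SE, adjusted p = 0.00135) and 1.16 ± 0.17 (SE, adjusted p = 0.00266) against Control, and the interval of the difference between them was -0.26 to 0.52. Rtp4 had 11.6, 9.27 and 11.1 FPKM in Co+Len@OVA+anti-PD1, 3.99, 4.10 and 4.28 FPKM in Lenvatinib+anti-PD1 and 2.34, 5.14 and 4.42 FPKM in Control tumours. RTP4 is a chaperone-like protein that also restricts some viruses. Rtp4 overlapped Control in Lenvatinib+anti-PD1, and rose in Co+Len@OVA+anti-PD1 against Control (1.37 ± 0.23 SE, adjusted p = 0.00384) and against Lenvatinib+anti-PD1 (1.27 ± 0.23 SE, adjusted p = 0.00562). It overlaps Masp1 on the opposite strand, and 9.28% of its 100-base stretches are shared with the transcript Gm45338. Xaf1 had 6.03, 5.64 and 6.11 FPKM in Co+Len@OVA+anti-PD1, 2.81, 3.26 and 3.61 FPKM in Lenvatinib+anti-PD1 and 2.29, 2.52 and 2.59 FPKM in Control tumours. XAF1 binds the apoptosis inhibitor XIAP. Xaf1 passed in all 3 comparisons, at 1.12 ± 0.10 (SE, adjusted p = 0.000258), 0.32 ± 0.10 (SE, adjusted p = 0.0446) for Lenvatinib+anti-PD1 against Control, and 0.79 ± 0.10 (SE, adjusted p = 0.000819) between the treatments. The call of Xaf1 in Lenvatinib+anti-PD1 against Control was kept in 1 of the 9 fits that left out 1 library.

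Ifi27l2a had 51.5, 35.1 and 43.4 FPKM in Co+Len@OVA+anti-PD1, 24.4, 38.4 and 33.0 FPKM in Lenvatinib+anti-PD1 and 11.5, 21.1 and 19.3 FPKM in Control tumours. Ifi27l2a, which encodes a small interferon-induced membrane protein, rose in both treatments against Control, by 1.33 ± 0.26 (SE, adjusted p = 0.00707) and 0.89 ± 0.26 (SE, adjusted p = 0.0408), with overlap between the treatments. Ifi35 had 20.9, 21.5 and 21.4 FPKM in Co+Len@OVA+anti-PD1, 17.6, 18.8 and 18.8 FPKM in Lenvatinib+anti-PD1 and 12.3, 14.8 and 14.1 FPKM in Control tumours. IFI35 pairs with the protein NMI, and Ifi35 rose by 0.62 ± 0.07 (SE, adjusted p = 0.000908) and 0.41 ± 0.07 (SE, adjusted p = 0.00628), small differences with narrow replicate spread. Trim30a had 10.7, 8.13 and 9.65 FPKM in Co+Len@OVA+anti-PD1, 3.86, 3.38 and 4.30 FPKM in Lenvatinib+anti-PD1 and 1.02, 5.25 and 3.81 FPKM in Control tumours. Trim30a, a mouse TRIM gene known to restrain NF-kappa-B signalling, rose in Co+Len@OVA+anti-PD1 against Control by 1.57 ± 0.43 (SE, adjusted p = 0.0256), while Lenvatinib+anti-PD1 lay inside the Control range. Control replicate 1, at 1.02 FPKM, lay far below the other two Control libraries.

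Fold changes can be set beside the promoter matches. In Co+Len@OVA+anti-PD1 against Control, the 13 with a core had a median log2 fold change of 1.12 and 9 rose, and the 12 without had a median of 1.07 and 10 rose. Between the treatments the medians were 0.62 (4 of 13 rose) and 0.80 (6 of 12 rose). For Lenvatinib+anti-PD1 against Control they were 0.38 (3 of 13 rose) and 0.25 (4 of 12 rose). These are descriptions with no test. Dhx58, Zbp1, Usp18, Oas2, Mx1, Mx2, Parp9, Parp14, Ifi27l2a and Rtp4 had no entry in the table.

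Upstream of the members, the interferon genes that were listed, other than Ifng, were hardly seen. Of 21 ligand symbols looked for, 6 were found and Ifng was the only one that passed the filter. The symbols not found have no values, so their levels are unknown. Ifnb1 was listed at 0 in 7 libraries and reached 0.0571 and 0.0770 FPKM in Lenvatinib+anti-PD1 replicates 1 and 3. Ifng had 4.59, 6.06 and 5.22 FPKM in Co+Len@OVA+anti-PD1, 3.10, 3.30 and 2.90 FPKM in Lenvatinib+anti-PD1 and 0.433, 1.57 and 1.09 FPKM in Control tumours. Ifng, the gene of interferon gamma, rose in both treatments against Control, by 1.99 ± 0.26 (SE, adjusted p = 0.00141) and 1.31 ± 0.26 (SE, adjusted p = 0.00979), and its 3 groups did not overlap. Ifnar1 had 13.6, 15.8 and 15.2 FPKM in Co+Len@OVA+anti-PD1, 9.58, 9.49 and 9.65 FPKM in Lenvatinib+anti-PD1 and 10.0, 11.3 and 10.9 FPKM in Control tumours. Ifnar2 had 21.5, 22.5 and 22.2 FPKM in Co+Len@OVA+anti-PD1, 13.2, 13.2 and 13.9 FPKM in Lenvatinib+anti-PD1 and 15.6, 16.4 and 16.9 FPKM in Control tumours. The receptor genes rose in Co+Len@OVA+anti-PD1 against Control (Ifnar1 0.45 ± 0.07 SE, adjusted p = 0.00325 and Ifnar2 0.42 ± 0.05 SE, adjusted p = 0.00115), whereas in Lenvatinib+anti-PD1 Ifnar2 fell against Control (-0.27 ± 0.05 SE, adjusted p = 0.00949). Ifnar2 also passed between the treatments, at 0.69 ± 0.05 (SE, adjusted p = 8.33e-05), and did so with replicates 1 and 2 only (adjusted p = 0.0366).

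Of 16 receptor, kinase and transcription factor genes outside the members, 7 rose and none fell in Co+Len@OVA+anti-PD1 against Control, 3 rose and 2 fell in Lenvatinib+anti-PD1 against Control, and 8 rose and none fell between the treatments. Over all genes tested, 20.9% rose and 12.7% fell in the first of these, 13.8% and 9.87% in the second and 17.3% and 12.0% in the third. Leaving out Control replicate 1, 9 of the 16 fell in Lenvatinib+anti-PD1 against Control and 13 rose between the treatments. In that fit 17.4% of all genes fell in the former comparison and 27.5% rose in the latter. These shares also stand beside the counts without Control replicate 1 below. With replicates 1 and 2 only, 0, 0 and 1 of the 16 passed as higher, against 0.111%, 0.215% and 0.443% of all genes. None of the sensing genes and negative regulators counted below passed in those libraries. Irf1 had 74.5, 85.1 and 78.6 FPKM in Co+Len@OVA+anti-PD1, 68.2, 63.1 and 66.6 FPKM in Lenvatinib+anti-PD1 and 23.9, 35.4 and 35.3 FPKM in Control tumours. Irf1, an early target of interferon gamma, rose in both treatments against Control, by 1.34 ± 0.14 and 1.07 ± 0.14 (SE, adjusted p = 0.000600 and 0.00191 by limma). Jak2, a kinase of the interferon gamma receptor, averaged 37.8 ± 2.00 FPKM in Co+Len@OVA+anti-PD1, 22.9 ± 0.985 FPKM in Lenvatinib+anti-PD1 and 41.5 ± 4.44 FPKM in Control tumours (SD, n = 3 each) and fell in Lenvatinib+anti-PD1 against Control (-0.84 ± 0.08 SE, adjusted p = 0.000555). Of 13 tested genes of nucleic acid sensing, 3 rose and 2 fell in Co+Len@OVA+anti-PD1 against Control, 1 rose and 1 fell in Lenvatinib+anti-PD1 (5 fell without Control replicate 1), and 2 rose between the treatments (9 without Control replicate 1). Unc93b1, which carries nucleic acid-sensing Toll-like receptors to endosomes, was among those that rose between the treatments, at 1.36 ± 0.37 (SE, adjusted p = 0.0273). Mavs, the adaptor of the RNA helicases, showed no call, with a 95% interval of -0.20 to 0.72 in Co+Len@OVA+anti-PD1 against Control. Of 9 negative regulators, 2 rose in Co+Len@OVA+anti-PD1 against Control, 1 rose and 2 fell in Lenvatinib+anti-PD1 (4 fell without Control replicate 1), and 3 rose between the treatments (7 without Control replicate 1). Socs3, a feedback inhibitor of JAK kinases, was one of the 2 that fell in Lenvatinib+anti-PD1, at -0.47 ± 0.10 on the log2 scale (SE, adjusted p = 0.0123 by limma).

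A further list of 56 interferon-stimulated genes, of which 55 were found and 53 tested, was counted in the same way. In Co+Len@OVA+anti-PD1 against Control 34 rose and 1 fell (median 0.84), in Lenvatinib+anti-PD1 against Control 9 rose and 1 fell (0.15), and between the treatments 20 rose and none fell (0.64). Over all genes tested, 20.9%, 13.8% and 17.3% rose in these comparisons, and 12.7%, 9.87% and 12.0% fell. With replicates 1 and 2 only, 1, 0 and 0 of the 53 rose, against 0.111%, 0.215% and 0.443% of all genes. At an unadjusted p under 0.05 in those libraries, 26, 7 and 11 were higher, against 13.6%, 9.91% and 10.4% of all genes. With Control replicate 1 left out, 10 of the 53 rose and 10 fell in Lenvatinib+anti-PD1 against Control, against 15.5% and 17.4% of all genes. The median of the list was then -0.14, and 44 rose between the treatments, against 27.5% of all genes. The 4 most abundant genes of this list were not among those that rose against Control. Ifitm3 and Ifitm2 encode membrane proteins that block virus entry. Ifitm3 averaged 489 ± 76.3 FPKM in Co+Len@OVA+anti-PD1, 516 ± 47.5 FPKM in Lenvatinib+anti-PD1 and 464 ± 60.4 FPKM in Control tumours (SD, n = 3 each), and Ifitm2 averaged 232 ± 63.5 FPKM in Co+Len@OVA+anti-PD1, 236 ± 56.8 FPKM in Lenvatinib+anti-PD1 and 358 ± 27.4 FPKM in Control tumours. Ifitm2 was the gene that fell in Co+Len@OVA+anti-PD1 against Control (-0.66 ± 0.22 SE, adjusted p = 0.0499), a call lost without Control replicate 1 (adjusted p = 0.112). Ly6e, a restriction factor of coronaviruses, rose between the treatments (0.29 ± 0.07 SE, adjusted p = 0.0139). Of 10 genes known mainly as targets of interferon gamma, 5 rose in each treatment against Control and 2 between the treatments. Over all genes, 20.9% rose in Co+Len@OVA+anti-PD1 and 13.8% in Lenvatinib+anti-PD1 against Control. Between the treatments 17.3% of all genes rose, so the 2 of 10 lie near that share. When Control replicate 1 was left out, 5 of the 10 rose and 4 fell in Lenvatinib+anti-PD1 against Control, beside 15.5% and 17.4% of all genes. Their median there was 0.30, against 0.79 with all libraries. Between the treatments 9 of the 10 then rose, beside 27.5% of all genes. With replicates 1 and 2 only, 2, 1 and 0 of the 10 passed as higher, against 0.111%, 0.215% and 0.443% of all genes. Gbp2, a guanylate-binding protein, was one of the 10 and rose in all 3 comparisons of 9 libraries, at 1.82 ± 0.22, 0.97 ± 0.22 and 0.85 ± 0.22 (SE, adjusted p = 0.000932, 0.0155 and 0.0223 by limma). Gbp2 had 392, 339 and 367 FPKM in Co+Len@OVA+anti-PD1, 206, 196 and 207 FPKM in Lenvatinib+anti-PD1 and 69.0, 135 and 118 FPKM in Control tumours.

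Markers of immune and liver cells also differed between the groups, not all in the direction of the members, and their part in these results was not tested. The 6 T cell markers summed to 148, 107 and 125 FPKM in Co+Len@OVA+anti-PD1, 43.4, 44.1 and 45.8 FPKM in Lenvatinib+anti-PD1 and 12.6, 55.5 and 42.5 FPKM in Control tumours. Of these, 5 rose in Co+Len@OVA+anti-PD1 against Control, none in Lenvatinib+anti-PD1 against Control and 4 between the treatments. For these and the marker counts below, the shares over all genes tested were as follows. In the first of these comparisons 20.9% rose and 12.7% fell, in the second 13.8% and 9.87%, and in the third 17.3% and 12.0%. The 6 macrophage markers summed to 1138, 946 and 1061 FPKM in Co+Len@OVA+anti-PD1, 292, 322 and 308 FPKM in Lenvatinib+anti-PD1 and 215, 1012 and 739 FPKM in Control tumours. None of the 6 rose in Co+Len@OVA+anti-PD1 against Control, and 4 rose against Lenvatinib+anti-PD1. None passed in Lenvatinib+anti-PD1 against Control, but all 6 fell there without Control replicate 1, beside 17.4% of all genes. The median of the 6 was then -1.58, against -0.86 with all libraries. The 6 mature hepatocyte markers summed to 745, 1046 and 917 FPKM in Co+Len@OVA+anti-PD1, 3362, 3281 and 3469 FPKM in Lenvatinib+anti-PD1 and 5270.4, 2304 and 3347 FPKM in Control tumours, and all 6 fell in Co+Len@OVA+anti-PD1 against both other groups. The 5 neutrophil markers summed to 153, 64.3 and 105 FPKM in Co+Len@OVA+anti-PD1, 22.0, 32.1 and 34.4 FPKM in Lenvatinib+anti-PD1 and 109.6, 119 and 112 FPKM in Control tumours. Of these, 1 rose and 2 fell in Co+Len@OVA+anti-PD1 against Control, 4 fell in Lenvatinib+anti-PD1 against Control, and 4 rose between the treatments. Red blood cell markers (4 genes) summed to 1574 to 2277 FPKM in Co+Len@OVA+anti-PD1, 129 to 323 FPKM in Lenvatinib+anti-PD1 and 225 to 448 FPKM in Control tumours, and all 4 rose in Co+Len@OVA+anti-PD1 against both other groups. The 6 plasmacytoid dendritic cell markers, of a cell known as a strong interferon producer, summed to 8.19, 2.29 and 4.78 FPKM in Co+Len@OVA+anti-PD1, 1.13, 56.2 and 23.3 FPKM in Lenvatinib+anti-PD1 and 0.283, 1.19 and 1.46 FPKM in Control tumours. All 3 Co+Len@OVA+anti-PD1 sums lay above Control, and 2 of the 6 genes passed the filter, with no call in any comparison. Siglech had 0.759, 0.149 and 0.353 FPKM in Co+Len@OVA+anti-PD1, 0.0681, 0.0603 and 0.0429 FPKM in Lenvatinib+anti-PD1 and 0.0170, 0.186 and 0.170 FPKM in Control tumours. Siglech, a defining marker of these cells, overlapped between Co+Len@OVA+anti-PD1 and Control. Afp had 239, 233 and 239.7 FPKM in Co+Len@OVA+anti-PD1, 379, 339 and 385 FPKM in Lenvatinib+anti-PD1 and 439, 368 and 404 FPKM in Control tumours. Afp, a fetal liver gene listed as a hepatoma marker, fell in Co+Len@OVA+anti-PD1 against Control (-0.76 ± 0.08 SE, adjusted p = 0.000589) and against Lenvatinib+anti-PD1 (-0.63 ± 0.08 SE, adjusted p = 0.00110), and was the largest part of the 4 hepatoma markers' sum. It was the only 1 of the 4 that fell in either comparison, and none rose. The median log2 fold change of the 4 was 0.03 against Control and -0.39 against Lenvatinib+anti-PD1. For 2 of the 4, all 3 Co+Len@OVA+anti-PD1 libraries lay above all 3 Control libraries. With replicates 1 and 2 only, no T cell, macrophage, neutrophil, red blood cell or hepatoma marker passed in any comparison. Of the 6 mature hepatocyte markers, 1 then passed as lower in Co+Len@OVA+anti-PD1 against Control and 3 between the treatments. Over all 15353 genes tested, 63 and 297 were lower in those comparisons.

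**Figure D5:**
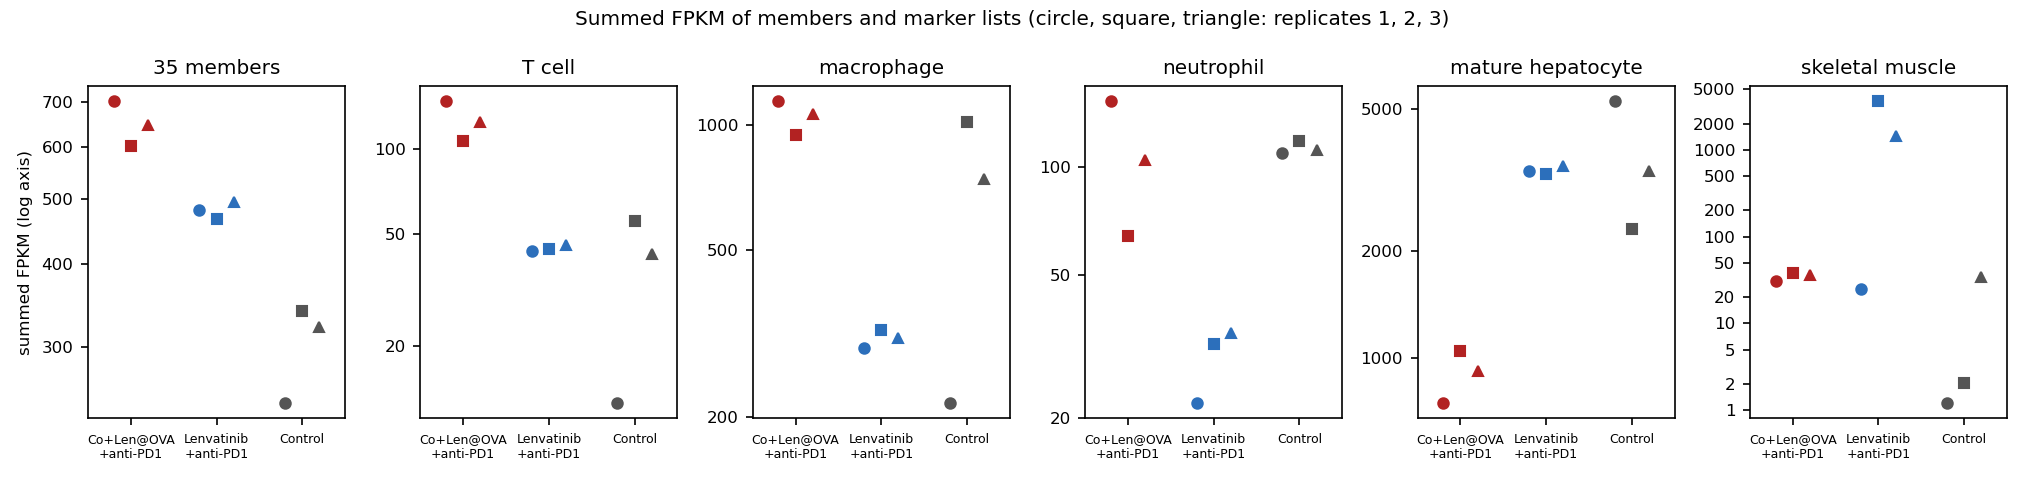
Summed FPKM of the 35 members and of 5 marker lists in each library (circle, square and triangle for replicates 1, 2 and 3), each on its own log axis. The member sums, of which Bst2 is a large part, do not overlap between the 3 groups. T cell and macrophage sums of Lenvatinib+anti-PD1 lie between the lowest and highest Control libraries, for macrophages above Control replicate 1 only; the skeletal muscle sums stand out in Lenvatinib+anti-PD1 replicates 2 and 3.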

How the data were processed

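Libraries that keep the strand (dUTP) were prepared from poly(A) RNA and sequenced as pairs of 150-base reads, per the labels' protocols. The authors deposited FPKM for 32761 genes in a table titled as raw counts, so count tests were not used. Column totals ranged from 331611 to 372794 FPKM and depth is unknown. fastp, StringTie and edgeR are named without versions, per the submitters' processing notes; which aligner, build or annotation was used is not given in the sources used here. The FPKM were used as deposited in limma 3.58.1 (R 4.3.3) on log2(FPKM + 0.5), with trend and robust empirical Bayes variance, for the 15353 genes whose mean reached 0.5 FPKM, in a fit of 9 libraries with 6 residual degrees of freedom. P-values measure only the spread between these libraries, since the labels do not say that each came from a separate mouse. The members, lists, settings and rules were chosen with earlier results of these data known. All members could be named; other genes came from the lists, at most the 4 of highest mean FPKM in each, with Ifnb1, Ifng, Ifnar1 and Ifnar2; 1 further gene is not reported here. Marker genes named for a cell type (Siglech, Afp, Cox6a2) are outside that rule and were chosen after their values were seen. Alternatives were other pseudocounts, filters, scalings, variance models, fits of 2 groups, a replicate block, replicates 1 and 2 only, and leaving out each library. The code was tested on simulated data with known changes. Shared 100-base stretches, overlaps and chromosomes come from the GENCODE mouse annotation of GRCm38 and promoters from RefSeq (GRCm38.p6), and neither need be the annotation behind the FPKM.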

Additional observations from a re-analysis of the deposited data

How the results depend on the processing

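Over 693 values each (35 members under 20 alternatives, fewer where a filter dropped members), the direction and side of the threshold were kept for 598 in Co+Len@OVA+anti-PD1 against Control, 596 in Lenvatinib+anti-PD1 against Control and 572 between the treatments. Lost calls numbered 84, 68 and 71, gained calls 7, 8 and 42, and changed signs 4, 21 and 8. With 1 library left out, the members' median ran from 0.83 to 1.26, 0.09 to 0.48 and 0.62 to 0.81. Median-of-ratios scaling took the median of all genes in Co+Len@OVA+anti-PD1 against Control from 0.13 to 0.02 and that of the members to 0.99. Of the 26, 11 and 14 member calls, 22, 5 and 13 were kept under all 3 other scalings.

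In Lenvatinib+anti-PD1 against Control, members passing numbered 5 with no filter on low values, 5 with values scaled to the same total and 6 in a fit of the 2 groups. Between the treatments they were 9 with no filter and 25 in a fit of the 2 groups. In Co+Len@OVA+anti-PD1 against Control, genes passing numbered 3279 of 15353 in a fit of the 2 groups, against 5155 in the fit of 9 libraries. With replicates 1 and 2 only, which has fewer samples, genes passing were 80, 53 and 365 in the 3 comparisons and members 1, 0 and 0. Leaving out each library gave 2849 to 5770 genes and 19 to 27 members in Co+Len@OVA+anti-PD1 against Control, 1957 to 5053 and 5 to 13 in Lenvatinib+anti-PD1 against Control, and 2381 to 6592 and 5 to 27 between the treatments.

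Same-numbered libraries did not deviate together (r -0.248 to 0.0785, none of 9 pairs over 0.1), so the numbers were not taken as pairs. With the replicate number as a block, 23, 6 and 9 members passed and 4025, 2753 and 3307 genes.

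Signs turned for differences without a call, the largest being Ifit2 in Lenvatinib+anti-PD1 against Control, at -0.84 with all libraries and 0.020 without Lenvatinib+anti-PD1 replicate 2; the cause was not tested. Usp18 in Lenvatinib+anti-PD1 against Control was -0.047 at equal totals, -0.029 under median-of-ratios, -0.023 under upper quartile scaling and -0.020 with replicates 1 and 2 only. Between the treatments, Mx1 was -0.037 under median-of-ratios and -0.0038 under upper quartile scaling, and Isg20 -0.076 and -0.038. With replicates 1 and 2 only, Mx1 in Co+Len@OVA+anti-PD1 against Control was 0.017, and in Lenvatinib+anti-PD1 against Control Oas3 was 0.030 and Mx2 0.062. Leaving out libraries, ranges crossed 0 in Co+Len@OVA+anti-PD1 against Control for Dhx58 (-0.12 to 0.66), Rsad2 (-0.0078 to 0.87) and Mx1 (-0.39 to 0.021). They did so between the treatments for Isg20 (-0.071 to 0.10), Ifi44 (-0.0049 to 0.29) and Mx1 (-0.056 to 0.14). In Lenvatinib+anti-PD1 against Control they did so for 12 members, 9 of them on leaving out Control replicate 1 (Eif2ak2, Irf7, Ifit1, Oasl1, Cmpk2, Parp9, Dtx3l, Rtp4 and Trim30a): Usp18 (-0.083 to 0.095), Ifit2 (-1.54 to 0.020), Eif2ak2 (-0.0052 to 0.47), Irf7 (-0.22 to 0.35), Ifit1 (-0.15 to 0.61), Oasl1 (-0.33 to 0.064), Cmpk2 (-0.051 to 0.29), Parp9 (-0.027 to 0.49), Dtx3l (-0.20 to 0.36), Rtp4 (-0.19 to 0.31), Trim30a (-0.20 to 0.76) and Oas3 (-0.34 to 0.085).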

Other observations

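Within Co+Len@OVA+anti-PD1 and Control, most members shared the same highest and the same lowest library. Co+Len@OVA+anti-PD1 replicate 1 was the highest of its group for 27 of 35 members and replicate 2 the lowest for 25. Control replicate 1 was the lowest of its group for 32 members and replicate 2 the highest for 27. Over all genes, replicate 3 lay between replicates 1 and 2 for 65.5% in Co+Len@OVA+anti-PD1 and 66.7% in Control. Whether the order is particular to the members was not tested. In Lenvatinib+anti-PD1 no library stood apart in this way: replicates 1, 2 and 3 were the lowest for 10, 19 and 6 members. The T cell marker sums followed the same order in Co+Len@OVA+anti-PD1 (148, 107 and 125 FPKM in replicates 1, 2 and 3) and in Control (12.6, 55.5 and 42.5 FPKM).

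Ifit2 was listed at 0.0743 FPKM in Lenvatinib+anti-PD1 replicate 2, where its neighbour Ifit3 was at 6.68 FPKM, the highest of that group. In replicates 1 and 3 of the group Ifit2 was at 2.64 and 3.27 FPKM and Ifit3 at 4.88 and 4.44 FPKM.

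The 6 plasmacytoid dendritic cell markers summed to 56.2 and 23.3 FPKM in Lenvatinib+anti-PD1 replicates 2 and 3. Cox6a2, a gene also known from muscle, made up 55.7 and 22.8 FPKM of those sums, in the same libraries that carried skeletal muscle genes.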
